A study of Homo sapiens with 2 samples.

Results

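Mucins and the enzymes that build and cap their sugar chains were compared between stable populations of Panc1, an established human line derived from a ductal adenocarcinoma of the pancreas. The genes were chosen by symbol: MUC or FUT followed by a digit, or a symbol beginning with GALNT, GCNT, B3GNT, MGAT, ST3GAL, ST6GAL or ST8SIA. The rule found 94 of the 19775 genes named by a single symbol, read by 214 of 54675 probe sets (groups of short probes against 1 transcript). Of the 94, 84 were protein-coding, 6 were long non-coding RNAs, 3 were pseudogenes and 1 (MUC3) had no current gene ID.

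The mock population carried the vector alone, and the other population, labelled syk-wt and called syk here, received wild-type SYK, a cytoplasmic tyrosine kinase. Both were stable populations kept under hygromycin with no other treatment, and biotin-labelled cRNA was made from 100 ng of total RNA of each. The vector and its promoter are not given in the sources used here. Each population had 1 Affymetrix array and no replicate, so no difference has an error or a test, and effects of the population, of its RNA preparation and of the array cannot be told apart. The comparison asks which of these transcripts differ between cells with and without the reintroduced kinase.

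Median log2 intensity was 4.26 for mock and 4.24 for syk. The 3' minus 5' difference of the ACTB control probe sets was 1.95 for mock and 2.37 for syk, and the part of this gap in any difference below was not tested. The brightest SYK probe set read 4.27 on mock and 4.73 on syk and its other 3 differed by -0.09, -0.07 and -0.27. Every value lay under the highest of 27 bacterial control probe sets on either array (4.77, used below as a floor), so each direction rests on the labels. This floor came from the mock array. On syk the highest control was 4.44, under the 4.73 of that SYK probe set. The epithelial keratins were present, with KRT8 at 11.06 on mock and 10.30 on syk and KRT18 at 13.34 and 13.12, and so was vimentin, VIM, at 13.64 and 12.98. All 18 markers of acinar, endocrine, fibroblast, leukocyte and endothelial cells on the array lay at or below the floor on both arrays, between 2.44 and 4.70. Of the 6 epithelial markers, 5 were below 0 in the difference (47.8% of all genes were). KRT19 and CDH1 passed 2-fold lower, and the median of the 6 was -0.63. The part of that shift in the mucin values was not tested.

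Mucins are large glycoproteins of epithelial surfaces and secretions, whose serine- and threonine-rich repeats carry dense O-linked sugar chains. GALNT enzymes start each chain by adding N-acetylgalactosamine to the protein, galactose makes core 1 of it, and GCNT and B3GNT enzymes branch or lengthen it. MGAT enzymes branch the N-linked chains of other glycoproteins. Sialyltransferases and fucosyltransferases cap the chains with sialic acid and fucose, which gives antigens such as sialyl-Tn, sialyl Lewis a (the CA19-9 antigen of pancreatic cancer) and Lewis x, and some of them act on glycolipids instead.

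Of the 94 genes, 54 passed the filter, a mean over both arrays at or above 4.25, the median of all probe sets. Among these 54, 2 were at least 2-fold higher on the syk array, the fucosyltransferase FUT9 and the sialyltransferase ST3GAL5, and 2 were at least 2-fold lower, the sialyltransferase ST6GALNAC2 and the transmembrane mucin MUC1. That is 7.41% of the 54, against 7.26% of the 12814 genes past the same filter, so with these settings the genes passed 2-fold about as often as all genes did. With the median over probe sets the share was 11.9% of 42 genes against 5.75%, and when only genes at or above the 75th percentile were kept it was 11.1% of 18 against 6.05%. With only the probe sets ending in _at alone it was 5.56% of 36 against 7.43%, and without a filter 5.32% of 94 against 4.96%. By direction, the background was 3.61% higher and 3.65% lower. The median difference was -0.06 over the 54 and 0.01 over all genes, and 32 of the 54 were below 0 (59.3%, against 47.8% of all genes). The absolute difference had a median of 0.26 over the 54 and of 0.30 over all genes, and 44 of the 54 (81.5%, against 71.5% of all genes) differed by under 0.5.

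The remaining 40 genes were dim, at or below the floor on both arrays in their brightest probe set, with differences between -0.48 and 1.47. Among the 54, 9 more lay at or below the floor on both arrays and 40 lay above it on both. The 4 genes past 2-fold kept that with the floor in place (7.41% of the 54, against 6.42% of all genes). FUT9 passed the filter through its syk value alone, so its entry among the 54 is bound to its difference. MUC1, at -1.04, lay just past the 2-fold line, while ST3GAL1 at 0.77 and MGAT4B at -0.78 came nearest without reaching it.

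**Figure D1:**
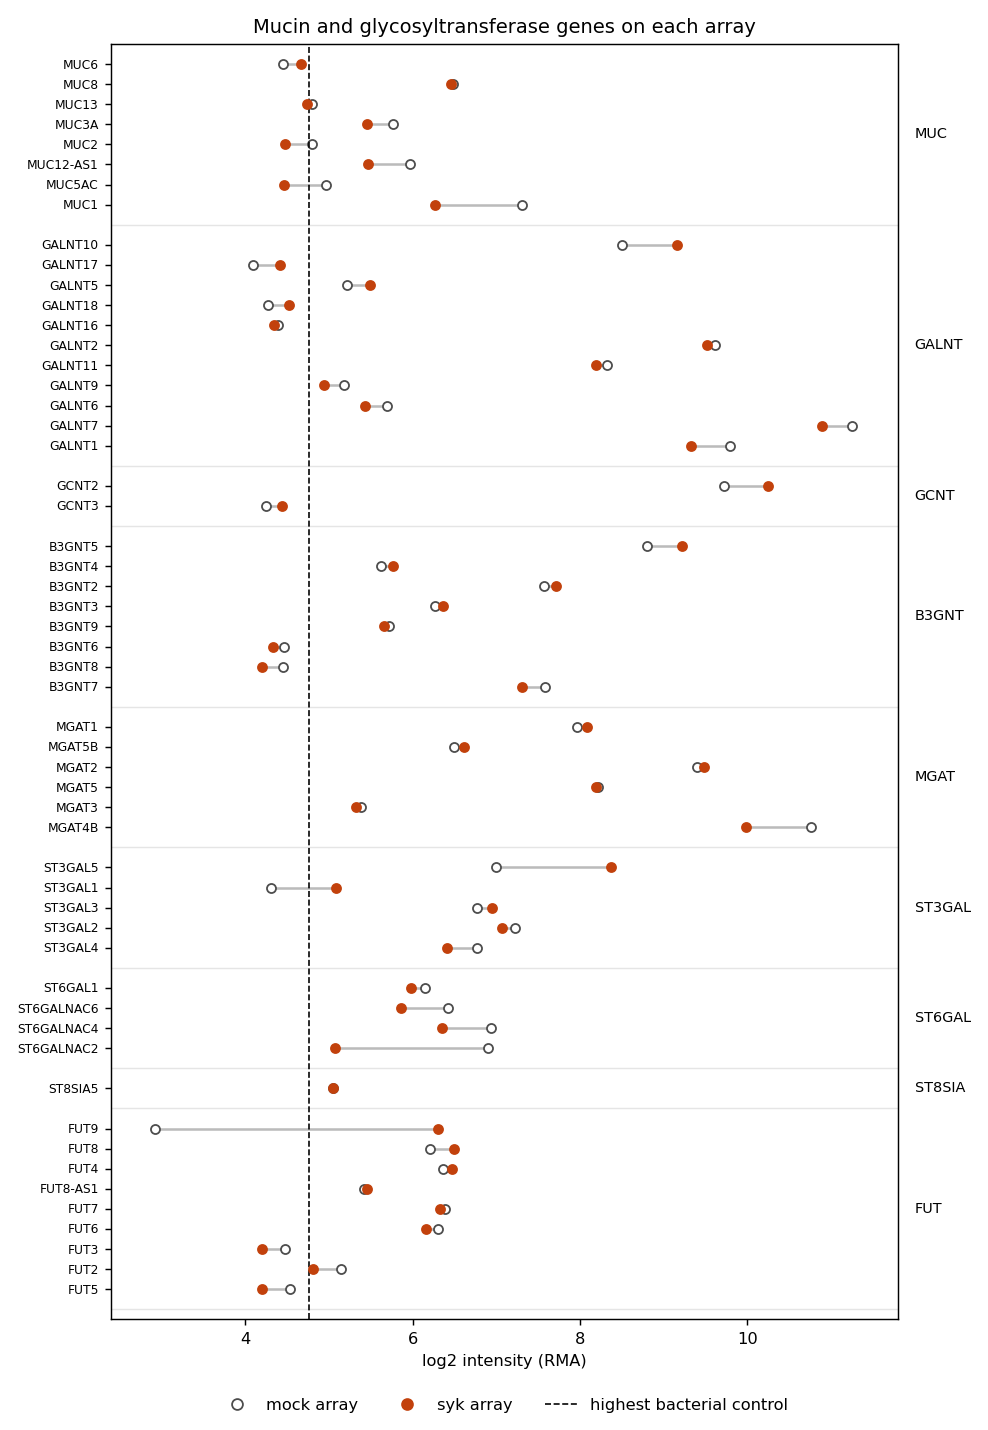
Log2 intensity of the 54 genes past the filter for mock (open circles) and syk (filled circles), grouped by family and ordered by difference, with the highest bacterial control (4.77) as a dashed line and 1 array per population. FUT9 spans the line from 2.93 to 6.30, and most pairs of circles lie close together.

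**Figure D2:**
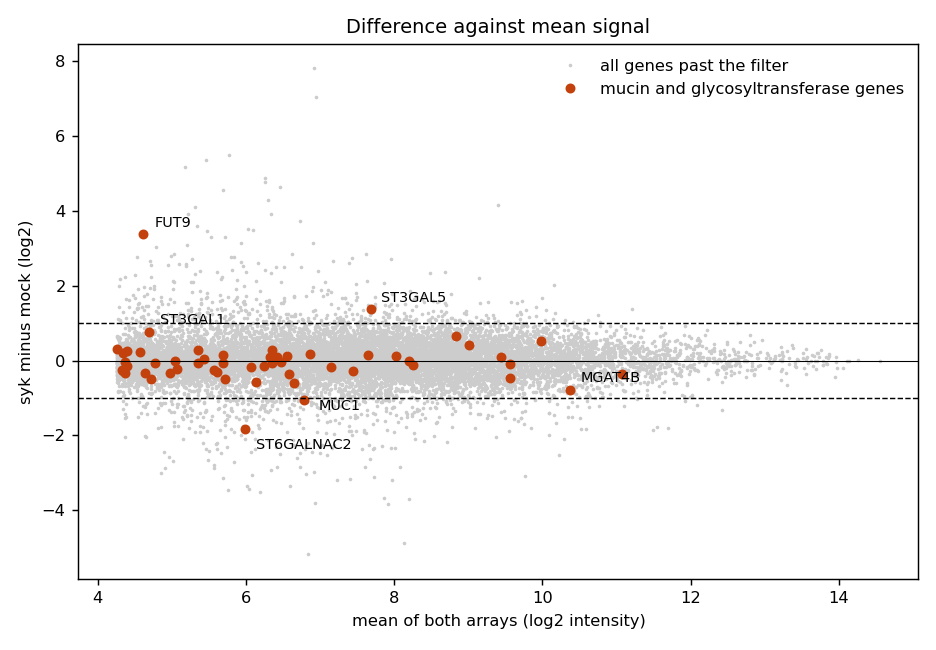
Difference syk minus mock (log2) against the mean of both arrays (log2 intensity) for all 12814 genes past the filter (grey) and the 54 mucin and glycosyltransferase genes (orange), with dashed lines at 2-fold. FUT9 (3.38) and ST3GAL5 (1.37) lie above the lines, ST6GALNAC2 (-1.82) and MUC1 (-1.04) below, and the others within them.

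Of the genes past 2-fold, 3 have an entry in the RefSeq promoter table (GRCh38.p14), and the 250 bases upstream of the first listed start are shown, so that the promoter of the lower mucin can be read beside those of the higher capping enzymes. Capitals mark matches, on either strand, to the GC box GGGCGG (a site of Sp1-type factors), the CCAAT box CCAAT, the TATA box TATAAA, the E-box CACGTG, the STAT site TTCNNNGAA or the interferon response element. The MUC1 window is chr1:155192916-155193165 on the minus strand, that of FUT9 is chr6:96015724-96015973 on the plus strand and that of ST3GAL5 is chr2:85888991-85889240 on the minus strand. None of the 3 windows overlaps another annotated gene.
MUC1: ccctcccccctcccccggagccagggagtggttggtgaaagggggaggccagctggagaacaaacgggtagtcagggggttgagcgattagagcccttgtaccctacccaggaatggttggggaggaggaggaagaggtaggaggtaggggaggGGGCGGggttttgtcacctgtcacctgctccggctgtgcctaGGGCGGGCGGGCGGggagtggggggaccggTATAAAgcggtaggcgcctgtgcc
FUT9: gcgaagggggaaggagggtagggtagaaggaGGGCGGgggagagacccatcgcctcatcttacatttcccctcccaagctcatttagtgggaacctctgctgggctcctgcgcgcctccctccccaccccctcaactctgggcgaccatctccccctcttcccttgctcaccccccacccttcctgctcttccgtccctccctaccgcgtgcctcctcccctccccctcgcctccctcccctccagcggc
ST3GAL5: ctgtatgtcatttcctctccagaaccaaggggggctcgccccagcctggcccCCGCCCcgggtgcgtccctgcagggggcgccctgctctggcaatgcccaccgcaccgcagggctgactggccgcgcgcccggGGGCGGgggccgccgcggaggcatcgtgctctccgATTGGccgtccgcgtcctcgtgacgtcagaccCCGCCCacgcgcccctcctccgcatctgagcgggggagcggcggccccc

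MUC1 had 4 GC box matches, 3 of them overlapping one another, and a TATA box 24 to 19 bases before the start. FUT9 had 1 GC box and ST3GAL5 had 3, with a CCAAT box on the opposite strand. A GC box stood in 42.3% of the 27305 promoters of the same length, a CCAAT box in 33.0% and a TATA box in 11.1%. E-boxes stood in 6.49%, STAT sites in 6.78% and interferon response elements in 3.07%, and none of these letters was found in the 3 windows. Of the 54 genes, 39 had a promoter entry, of which 24 (61.5%) held a GC box and 1 a STAT site. MUC1 was 66.0% G or C, FUT9 66.8% and ST3GAL5 76.0%, against a median of 58.0% over all promoters. ST3GAL5 has 5 starts in the table and MUC1 has 2, and which of them these cells used was not analysed here.

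MUC1, a transmembrane mucin of the apical surface that carries tumour-associated O-glycans, read 7.31 in mock and 6.27 in syk, 2.06-fold lower. Its other probe sets went the same way, from 6.63 to 5.45 (-1.18) and from 4.94 to 4.06 (-0.88). The last of these syk values lay under the floor, and with the floor that difference was -0.18. None of the 3 ends in _at alone, so MUC1 has no value when probe sets with other suffixes are left out. In bulk RNA, fewer expressing cells and less RNA per cell cannot be told apart. The mucins had 18 genes by the rule, of which 8 passed the filter. Among the 8, 1 was at least 2-fold lower (3.65% of all genes were) and 0 were higher (3.61%). Of the 8, 7 were below 0, against 47.8% of all genes. The median was -0.32 (-0.12 with the floor), against 0.01 over all genes. The gel-forming mucin MUC5AC read 4.96 and 4.46, a difference of -0.50, or -0.19 with the floor, since the syk value lay under it. Its other probe sets were dim and differed by 0.36, -0.55 and -0.36. The gel-forming mucin MUC2 (4.80 and 4.48) and the transmembrane mucin MUC13 (4.80 and 4.74) also had syk values under the floor. With the floor, MUC2 differed by -0.03 and MUC13 by -0.04. MUC6 (4.45 and 4.67) was under the floor on both arrays. The syk values of MUC5AC, MUC2, MUC13 and MUC6 lay above 4.44, the highest bacterial control on the syk array itself. The membrane mucin MUC3A was at 5.77 and 5.46, and MUC3, an older entry of a related name, was dim.

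The 8 mucins past the filter also include the non-coding MUC12-AS1, at 5.97 and 5.47, and MUC8 at 6.48 and 6.45. MUC16, the CA-125 antigen, was dim, at 3.28 on both arrays. MUC4, a membrane mucin studied widely in pancreatic cancer, was dim in each of its 6 probe sets, with differences between -0.26 and 0.44. MUC20, its neighbour on chromosome 3 in the RefSeq order, had 4 dim probe sets that all lay below 0, from -0.37 to -0.19. MUC5B, which makes the gel of airway mucus, read 4.16 and 4.24. At this signal level no difference in these mucins could be seen, which does not show that they were absent.

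Among the enzymes that start O-glycans, 11 of 21 GALNT genes passed the filter and 0 passed 2-fold, with a median of -0.09 and a range from -0.47 to 0.66. GALNT10 was higher in the brightest of its probe sets, from 8.50 to 9.16, with 0.49 and 0.00 in the others. GALNT1 was at 9.80 and 9.33 (-0.47), and of its 5 probe sets 4 lay between -0.47 and -0.17 and the dim one differed by 0.00. GALNT7, which adds to sites next to ones already glycosylated, was at 11.25 and 10.89, with -0.25 in its other probe set. GALNT2 was at 9.62 and 9.52, with 4 probe sets between -0.09 and 0.19. GALNT11 was at 8.32 and 8.19 by its single probe set. In the brightest probe sets of these 5 enzymes, GALNT10 was higher and the other 4 were lower, none by more than 0.66 on the log2 scale.

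GALNT6 was at 5.69 and 5.43, and GALNT5 at 5.21 and 5.49. GALNT3, an enzyme of differentiated epithelia, was dim in both probe sets (3.32 and 3.27 in the brighter). GALNT16 differed by -0.04 in its brightest probe set, and another read 4.78 on mock and 3.66 on syk (-1.11), a mock value barely above the floor. Of the probe sets with at least 1 array above the floor, 8 of 77 (10.4%) passed 2-fold among these genes and 7.7% among all probe sets with 1 symbol. The 8 belong to 7 genes, namely the 4 already named, GALNT16, B3GNT2 and B3GNT5. Both shares were counted without raising values to the floor. With the floor, the GALNT16 probe set differed by -0.01 and that of B3GNT2 by 0.84, so neither passed 2-fold.

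By their brightest probe sets, 0 of the measured branching and lengthening enzymes passed 2-fold, although B3GNT2 and B3GNT5 did in another probe set and with the median over probe sets. GCNT2, which makes the branched I blood-group antigen, was at 9.72 and 10.25 (0.53), with 0.23 in its other probe set. GCNT3, a mucin-type core 2 and core 4 enzyme, was under the floor on both arrays, at 4.25 and 4.44, and GCNT1, the leukocyte-type core 2 enzyme, was dim. All 8 B3GNT genes passed the filter, with a median of 0.02 and a range from -0.28 to 0.43.

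B3GNT5, which makes the lacto-series glycolipid core, had 3 probe sets that were all higher on the syk array. They read 8.80 and 9.23 (0.43), 5.45 and 6.74 (1.29) and 5.07 and 5.81 (0.74), so the size depends on the probe set. B3GNT2, the main enzyme of poly-N-acetyllactosamine chains, gave 0.14 (7.57 and 7.71) in its brightest probe set and 1.03 (4.58 and 5.61) in a second, whose mock value was under the floor. B3GNT3, which extends core 1, was at 6.27 and 6.37. B3GNT7 was lower in both probe sets above the floor, at 7.59 and 7.31 (-0.28) and at 6.93 and 6.49 (-0.44). Its other probe sets, both dim, differed by -0.51 and -0.14.

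In the N-glycan branching family, 6 of 10 genes passed the filter, 0 passed 2-fold and the median was 0.03. MGAT4B, which adds a branch to the arm that MGAT1 started, was lower in both probe sets, from 10.77 to 9.99 (-0.78) and from 9.44 to 8.75 (-0.70), 1.72-fold by the brighter. MGAT4A, its paralog, was dim in its 4 probe sets, whose differences ran from -0.35 to 0.40. MGAT1, which opens the pathway to complex N-glycans, was at 7.97 and 8.09, and MGAT2, which acts next on the other arm, at 9.40 and 9.49. MGAT5, whose branch has long been studied in tumour cells, was at 8.21 and 8.19, and MGAT3, which adds the bisecting residue, at 5.38 and 5.32. Of the 6, MGAT4B alone differed by over 0.5.

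The sialyltransferases held 2 of the 4 genes past 2-fold, in opposite directions. Of 21 genes, 10 passed the filter, so 2 of 10 passed 2-fold, against 7.26% of all genes. Their median was -0.17, and 6 of the 10 were below 0, against 47.8% of all genes. ST3GAL5, GM3 synthase, which starts most gangliosides by adding sialic acid to lactosylceramide, read 6.99 on mock and 8.37 on syk, 2.59-fold higher, by its only probe set. ST6GALNAC2, which adds sialic acid to the first N-acetylgalactosamine of O-glycans, read 6.90 on mock and 5.07 on syk, 3.53-fold lower, also by 1 probe set.

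The other ST3GAL genes went both ways, and the median of the 5 past the filter was 0.17, with a range from -0.36 to 1.37. That median turned to -0.22 with the median over each gene's probe sets and to -0.18 with probe sets ending in _at alone, where ST3GAL5 drops out. ST3GAL1, the enzyme that sialylates core 1, read 4.31 and 5.08 (0.77), at least 1.25-fold against the floor, and its other probe sets, both dim, differed by 0.28 and -0.13. ST3GAL2, which acts on core 1 of glycolipids and glycoproteins, was at 7.23 and 7.06, with 5 probe sets between -0.63 and 0.17. ST3GAL4, an enzyme of sialyl Lewis x synthesis, was at 6.76 and 6.41, and its other probe set was dim. ST3GAL3, a sialyl Lewis a enzyme, was at 6.78 and 6.95, with 7 probe sets from -0.45 to 0.30.

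ST3GAL6 lay below the filter and is named here after its values were seen. Of its 4 probe sets, 2 differed by 1.47 (2.91 and 4.38) and 1.01 (2.93 and 3.95) and the others by 0.15 and 0.05. All 8 values lay under the floor, so no fold is given.

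In the ST6GAL family, all 4 genes past the filter were lower on the syk array (47.8% of all genes were). Their median was -0.58, against 0.01 over all genes. Beside ST6GALNAC2, ST6GALNAC4, which makes the disialylated form of core 1, was at 6.94 and 6.35 (1.50-fold lower), with -0.45 and -0.41 in the other probe sets above the floor. ST6GALNAC6, which acts on gangliosides and on disialyl Lewis a, was at 6.42 and 5.86 (1.48-fold lower) by 1 probe set. ST6GAL1, which adds the common sialic acid cap of N-glycans, was at 6.15 and 5.99 (-0.17), with its other probe sets dim. ST6GALNAC1, the sialyl-Tn synthase, was dim at 3.24 and 3.34. ST6GALNAC6 and ST6GALNAC4 are neighbours on chromosome 9 with no coding gene between them, whereas 1 coding gene parts ST6GALNAC2 from ST6GALNAC1 on chromosome 17. Without the filter, the median of all 8 ST6GAL genes was -0.11.

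The ST8SIA genes, which build polysialic acid and disialyl gangliosides, were dim apart from ST8SIA5, at 5.04 on both arrays. ST8SIA1, GD3 synthase, which uses the GM3 that ST3GAL5 makes, read 2.64 and 2.74. ST8SIA4, a polysialyltransferase, had 5 probe sets between -0.14 and 0.59, all of them dim. In 11 of the 214 probe sets the arrays held identical values, as in 1505 of the 41097 probe sets with 1 symbol.

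**Figure D3:**
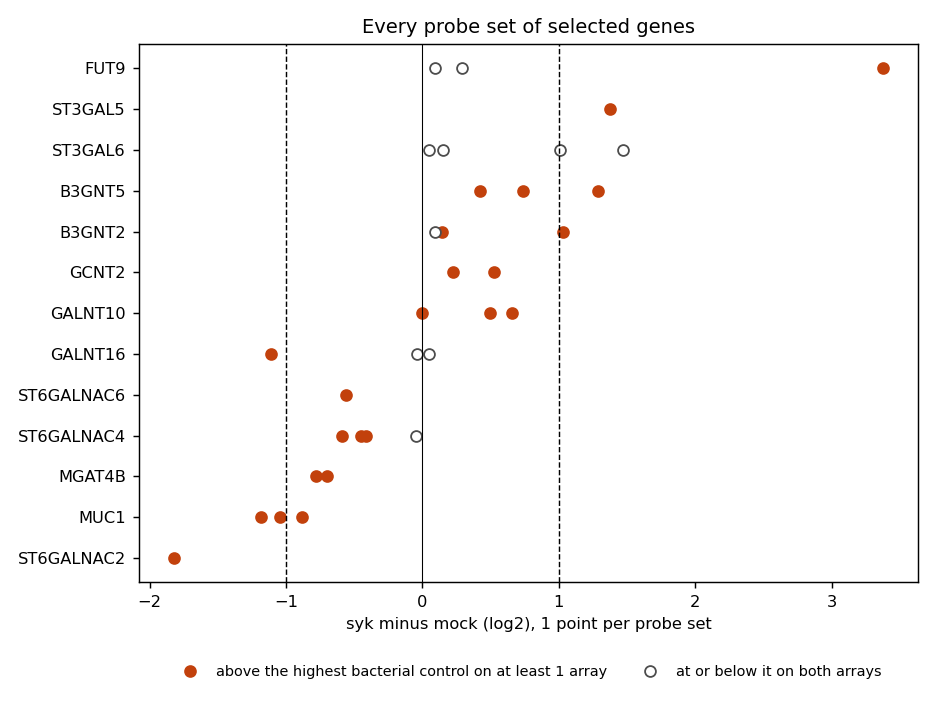
Difference syk minus mock (log2) in every probe set of 13 genes, with dashed lines at 2-fold. Filled points lay above the highest bacterial control on at least 1 array and open points lay at or below it on both. The 3 MUC1 probe sets lie together between -1.18 and -0.88, and the one at -0.88 had a syk value under the control. FUT9 has 1 probe set at 3.38 and 2 dim ones near 0.

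FUT9, which makes the Lewis x structure by adding fucose to N-acetylglucosamine in lactosamine chains, was higher on the syk array by its brightest probe set alone. That probe set read 2.93 on mock and 6.30 on syk, at least 2.90-fold higher against the floor. Both other FUT9 probe sets were under the floor on both arrays, at 2.74 and 3.03 and at 2.68 and 2.77, with differences of 0.29 and 0.09. The difference thus rests on 1 of 3 probe sets. The mean over the 3 probe sets falls below the filter.

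Apart from FUT9, the 8 FUT genes past the filter, among them the long non-coding FUT8-AS1 at 5.42 and 5.45, lay between -0.34 and 0.29. FUT8, which adds the core fucose of N-glycans, was higher in both probe sets, from 6.20 to 6.49 and from 4.94 to 5.38. FUT4, a second Lewis x enzyme, was at 6.36 and 6.47, and FUT7, which finishes sialyl Lewis x, at 6.38 and 6.33. The other FUT7 probe set was dim, at 3.20 and 3.24. FUT2, the secretor enzyme, was at 5.14 and 4.81. FUT3, the Lewis enzyme that completes CA19-9, was under the floor at 4.48 and 4.20, and so was FUT5 at 4.54 and 4.20. FUT6 read 6.31 and 6.17 in its brightest probe set, but its 8 probe sets ran from -0.38 to 0.35. FUT3, FUT5 and FUT6 are close paralogs that lie side by side on chromosome 19, and their signals are uncertain where probes are shared. Under the current symbol POFUT4, outside the rule, the former FUT11 read 8.36 and 7.53, and POFUT3, the former FUT10, 3.95 and 4.58. Former mucin symbols outside the rule belong to MCAM (MUC18), an adhesion molecule at 7.90 and 6.67, a difference of -1.23, and to OVGP1 (MUC9), at 5.60 and 6.02. Another belongs to EMCN (MUC14), which was dim at 3.08 and 3.43. These genes with former symbols were named after their values were seen.

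Agreement between probe sets gave a partial guide to precision. Over the 20 genes of this group with several probe sets past the filter, log2 differences varied within a gene with a pooled SD of 0.28, and over all 6028 such genes the SD was 0.35. Of the 39 genes past the filter with several probe sets at any level, 19 had all probe sets on one side of 0. ST3GAL5 and ST6GALNAC2 are among the 15 with a single probe set. This SD covers probe behaviour and transcript forms, and no variation between cultures.

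Related genes were counted from 8 lists with 110 entries, of which 102 were matched to a probe set with 1 symbol and 82 passed the filter. The lists were chosen with earlier results of these data known, so their shares describe these genes and test nothing. Of the 82, 7 passed 2-fold, 2 higher and 5 lower (8.54%, against 7.26% of all genes), and they lay in 3 of the 8 lists. With both arrays floored it was 6 of the 82 (7.32%, against 6.42% of all genes), since CHST2 no longer passed. Among galactosyl and N-acetylgalactosaminyl transferases, 0 of 18 measured genes passed 2-fold and the median was -0.21, with 12 below 0 (47.8% of all genes were). C1GALT1, the core 1 synthase, was at 7.24 and 7.79 (0.55), whereas its chaperone C1GALT1C1 was at 9.53 and 9.19 (-0.34). B4GALT5, a lactosylceramide synthase that supplies the substrate of ST3GAL5, was at 9.06 and 8.41 (-0.65). The related B4GALT6 went the other way, at 8.64 and 8.87 (0.24).

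In sugar nucleotide supply, 0 of 17 genes passed 2-fold and the median was 0.11. NANP, the phosphatase that releases free sialic acid, had the largest difference at 0.87, from a mock value of 8.13. SLC35A1, the carrier of CMP-sialic acid into the Golgi, was at 8.69 and 9.12, and GNE, which starts sialic acid synthesis, at 9.65 and 9.28. Early N-glycan processing (8 genes, median 0.05), the O-fucose, O-glucose and O-GlcNAc enzymes (11 genes, median -0.10) and the sialidases and hydrolases (8 genes, median -0.15) also had 0 genes past 2-fold.

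The 7 list genes past 2-fold lay in the 3 lists described next. Among sulfotransferases and sialate O-acetylation genes, 7 were measured, with a median of 0.05. SIAE, which removes O-acetyl groups from sialic acid, was 2.09-fold lower (6.30 and 5.24), and CHST2, a GlcNAc sulfotransferase, was at least 1.22-fold higher (3.98 and 5.05). CHST2 passed the filter through its syk value alone, and its other probe set, dim on both arrays, differed by -0.19. Among 5 mucin secretion genes, AGR2, an endoplasmic reticulum protein needed for mucin folding, was 2.92-fold lower (10.49 and 8.95), with -0.91 in its other probe set. FCGBP, which is secreted with mucus, was 2.94-fold higher (5.18 and 6.74). The list median was -0.27.

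All 8 measured mucin-like membrane sialoglycoproteins and galectins were below 0 (47.8% of all genes were), with 3 at least 2-fold lower (3.65% of all genes) and a median of -0.72. Without the filter the median was -0.32, and this list too was chosen with earlier results known. PODXL (podocalyxin), a heavily sialylated membrane protein, was 4.06-fold lower, at 9.55 and 7.53. LGALS8 (galectin 8), a lectin that binds sialylated galactosides, was 2.91-fold lower, at 10.03 and 8.49, and its 6 probe sets ran from -2.04 to -0.99. LGALS3BP, a glycoprotein ligand of galectins and also an interferon-induced gene, was 2.87-fold lower, at 9.18 and 7.66. LGALS3, galectin 3, was at 11.09 and 10.18 (-0.91).

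**Figure D4:**
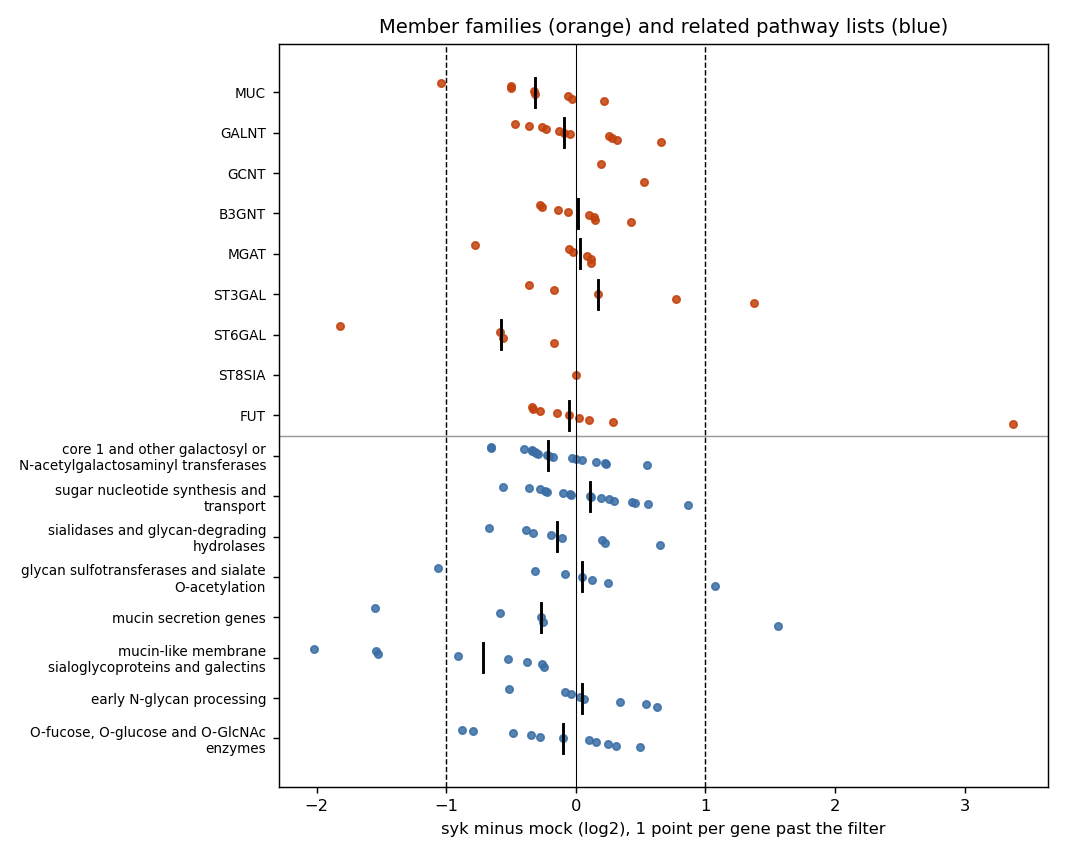
Difference syk minus mock (log2), 1 point per gene past the filter, for the 9 families (orange) and 8 related lists (blue), with a black bar at the median where at least 3 genes were measured and dashed lines at 2-fold. The 4 ST6GAL genes all lie below 0, and so do the 8 mucin-like sialoglycoproteins and galectins, as did 47.8% of all genes.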

How the data were processed

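Affymetrix arrays of RNA from a mock and a syk population of Panc1 were used, 1 array each. The authors deposited log2 intensities made with RMA (background correction, quantile alignment and probe set summary), per the submitters' processing notes, which give no version. That the values are log2 was read from their range. No depth applies to arrays, and their number limits the precision. RMA compresses differences between dim probe sets.

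Symbols came from the platform annotation: 41097 probe sets had 1 symbol, 1801 several and 11777 none here. Of the 94 genes, 93 matched a current RefSeq gene ID. A gene took its probe set with the highest mean. Genes with a mean at or above the 50th percentile of probe sets were counted, and 2-fold means an absolute log2 difference of 1. A value at or below 4.77, the highest bacterial control, makes a fold a lower bound ("at least"), and no fold is given where both are there. "Dim" means at or below 4.77 on both arrays.

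Members and lists were chosen with earlier results of these data known. Named genes are those past 2-fold in the gene value or in a probe set above the floor, the brightest of each family, and list genes past 2-fold. Others were named for their role, with values known. The calculation was tested on simulated data. Python 3.11.15, pandas 2.3.3 and statsmodels 0.14.6 (loess, span 0.2) were used. Alternatives were other scaling, probe set summaries, filters and the floor.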

Additional observations from a re-analysis of the deposited data

How the results depend on the processing

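No paired analysis was possible because each population had 1 array, and none could be left out. Over the alternatives the count of genes past 2-fold ran from 2 to 5, over 18 to 94 measured genes. With probe sets ending in _at alone it was 2 (1 higher, 1 lower), without MUC1 and ST3GAL5, which is 5.56% of 36 genes against 7.43% of all. At the 75th percentile filter it was also 2 (1 higher, 1 lower), without FUT9 and ST6GALNAC2, which is 11.1% against 6.05% of all. Both keep fewer genes. With the mean over probe sets 1 was higher, and FUT9 was lost (6.98% past 2-fold, against 4.82% of all genes). With the median over probe sets B3GNT2 and B3GNT5 passed and FUT9 did not (11.9% against 5.75%). Without a filter ST3GAL6 passed as well (5.32% against 4.96%). It also passed with the filter on the brighter array (8.93% against 7.38%). The ST3GAL median was -0.22 with the median over probe sets and -0.18 with _at probe sets alone, so its sign is unsettled, and the cause was not tested. The ST6GAL median was -0.11 and the median of mucin-like sialoglycoproteins and galectins -0.32 without a filter, where dim genes enter. With the floor FUT9 differed by 1.54. Counting protein-coding genes alone, added after seeing the data, left the count at 4 (7.69%, against 7.26% of all genes). The other list and family medians moved by less than 0.35, the SD between probe sets, but the signs of several near 0 also turned: B3GNT (down to -0.14), MGAT (-0.06), FUT (up to 0.03), sugar nucleotides (down to -0.13), sialidases (up to 0.05), sulfotransferases (down to -0.05) and O-fucose enzymes (up to 0.10). GCNT and ST8SIA had under 3 measured genes and no median. Signal over background limits the 49 genes at or below the floor on both arrays.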
